A study of Canis lupus familiaris with 8 samples.

Results

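The fibroblast growth factor (FGF) genes described here are 10 members of the family in dog jaw bone, 6 ligands (FGF1, FGF2, FGF7, FGF9, FGF10 and FGF18) and the 4 receptor tyrosine kinases FGFR1 to FGFR4. They were chosen by gene symbol in the array platform's annotation. Each was measured by 1 probe set (several short probes read as 1 value), and all 10 were among the 15947 genes tested. The RNA came from maxillary alveolar bone, the bone that holds the tooth roots, and was read on 8 Affymetrix whole-transcript arrays, 2 in each of 4 groups. C is sound alveolar bone from beside the premolar roots. D2 and D6 are healing tissue out of a surgical bone defect along with neighbouring bone at the second premolar, harvested 2 and 6 weeks after the operation if the digit in the name is a week. DT6 was harvested like D6 after a tooth had also been protracted, that is, moved forward. Sound bone and every defect group came from dogs whose age is not given in the sources used here. No label ties an array to an animal, so the p-values reflect array-to-array spread only, which could be technical. C held sound bone alone whereas the 3 defect groups mixed new tissue with old bone, and in such bulk RNA fewer cells of a type and less RNA per cell cannot be told apart.

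FGF ligands are secreted proteins that bind heparan sulfate chains on the cell surface and in the matrix, and heparan sulfate takes part in the complex of ligand and receptor. Receptor dimers then phosphorylate each other and signal through the docking protein FRS2 and the RAS and MAP kinase pathway, which in turn induces feedback inhibitors such as the Sprouty proteins. In the skeleton FGF2 is stored in bone matrix and acts on osteoblast precursors. FGF9 and FGF18 act on cartilage and bone growth, and FGFR3 restrains the growth of endochondral cartilage. FGF7 and FGF10 are made by connective tissue and act on epithelium through a splice form of FGFR2.

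The deposited values are treated here as log2, although the sources used do not give the log base. Differences are given as log2 ± SE from limma for 2 arrays against 2, unless stated. A gene rose, fell or passed where its p, adjusted by Benjamini-Hochberg over all genes, was under 0.05. Depth does not apply to arrays, and their number limits the precision. Replicates correlated across genes with r from 0.9745 to 0.986. COL1A1, the main collagen chain of bone, was high on every array, at 13.0 to 13.7. Osteocyte transcripts were uneven. The mean of 6 osteocyte markers stood −1.405 and −1.32 relative to C in D2, −1.04 and −0.20 in D6, and 0.04 and −0.86 in DT6. Over the 3 defect groups 5 of the 6 were lower than C and 1, PDPN, was higher. Several arrays also carried transcripts of other tissues. The mean of 12 airway and gland epithelium markers stood 3.58 to 4.36 above C on the D2 and DT6 arrays, against −0.31 and 0.48 on those of D6. The mean of 16 stratified oral epithelium markers was 2.13 above C on D2 array 2 and 3.54 on D6 array 1, and between −0.21 and 0.18 on the other arrays. The values carry no detection call, so no marker can be said to be at 0.

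FGF2, the basic fibroblast growth factor, differed from sound bone by more than any other member in each of the 3 defect groups. It read 8.11 and 7.86 in C, 6.58 and 6.995 in D2, 6.84 and 6.86 in D6, and 6.85 and 7.26 in DT6. Both C arrays lay above all 6 defect arrays, and the 3 defect groups overlapped one another. FGF2 fell in D2 by 1.20 ± 0.19 (2.30-fold lower, adjusted p = 0.0084), in D6 by 1.14 ± 0.19 (adjusted p = 0.0285) and in DT6 by 0.93 ± 0.19 (adjusted p = 0.0408). Over the 3 defect groups together, 6 arrays against 2, it fell by 1.09 ± 0.16 (2.13-fold lower, adjusted p = 0.0063). From low to high the order was D2, D6, DT6 and C, and no neighbouring pair of defect groups differed beyond its spread. The difference between D6 and D2 was 0.06, with a 95% interval from −0.38 to 0.50.

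Single arrays decided some of these FGF2 calls, though the difference stayed between −1.41 and −0.73 whichever array was left out. In D2 the call was lost at −1.08 without C array 1 (adjusted p = 0.0757) and at −0.99 without D2 array 1 (adjusted p = 0.0782). The D6 call was lost without C array 1 (adjusted p 0.2), C array 2 (0.0794), D6 array 1 (0.153) or D6 array 2 (0.0791). The DT6 call was lost without C array 1 (0.238), C array 2 (0.0944), D6 array 1 (0.0549), D6 array 2 (0.0557) or DT6 array 1 (0.1). For the 3 defect groups together it ended only without C array 1, at −0.97 (adjusted p = 0.0943). Means of marker lists moved with FGF2 or against it over the 8 arrays. That of 6 nerve and Schwann cell markers moved with it (r = 0.927). It stood at −0.79 and −0.55 relative to C in D2, −0.96 and −0.72 in D6, and −0.48 and −0.44 in DT6. Over the 3 groups all 6 nerve markers were lower than C, and 3 of them lay below both C arrays on every defect array. Endothelium and adipocyte means also moved with FGF2 (r = 0.711 and 0.703), and that of macrophage markers against it (−0.734). Of the 10 endothelium markers 7 were lower and 3 higher over the 3 groups, with a median of −0.01. The means of 6 dividing cell and 9 osteoblast markers moved against FGF2 too (r = −0.879 and −0.882). On the 6 defect arrays these stood 0.74 to 2.02 and 0.02 to 0.47 above C. Of the osteoblast markers, RUNX2 and DLX5 lay below both C arrays on every defect array, and 0 of the 9 passed in any comparison. Each of these r also takes in the step between C and the defect groups. The part of the cells of these lists in the FGF2 result was not tested.

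FGF9, a ligand of skeletal growth and of epithelium, also read highest in sound bone. Its values were 5.64 and 6.303 in C, 5.21 and 5.09 in D2, 5.11 and 4.75 in D6, and 5.31 and 5.40 in DT6. None exceeded 6.31, the highest array median, so FGF9 read low. A filter on dim genes dropped it, so its call was not recomputed there. Both C arrays again lay above every defect array, although the C arrays differed from each other by 0.66. From low to high the order was D6, D2, DT6 and C, and neighbouring defect groups did not differ beyond their spread. Over the 3 defect groups together FGF9 fell by 0.83 ± 0.19 (1.78-fold lower, adjusted p = 0.0323). In single groups it did not pass, with −0.83 ± 0.23 in D2 (adjusted p = 0.0659), −1.05 ± 0.23 in D6 (adjusted p = 0.0657) and −0.62 ± 0.23 in DT6 (adjusted p = 0.217). The call over the 3 groups ended without C array 1 (−1.16, adjusted p = 0.0618), C array 2 (−0.50, 0.196), D2 array 1 (−0.85, 0.0671), D2 array 2 (−0.81, 0.072) or D6 array 2 (−0.77, 0.0545), and FGF9 passed in D2 without C array 1 (−1.16, adjusted p just under 0.05).

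FGF1, the acidic fibroblast growth factor, which binds all the receptors, followed the same direction over a narrower range. It read 7.27 and 7.60 in C, 7.29 and 6.97 in D2, 6.84 and 6.84 in D6, and 7.02 and 7.09 in DT6. D6 and DT6 lay below C, while D2 array 1 reached into the C range. The largest difference, −0.60 ± 0.17 in D6, did not pass (adjusted p = 0.112), nor did that of the 3 defect groups together, −0.43 ± 0.13 (adjusted p = 0.0882). With quantile normalization of the deposited values, FGF1 fell over the 3 groups by 0.47 (adjusted p = 0.048).

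FGF7 and FGF10, the connective tissue ligands that act on epithelium, differed between the DT6 replicates. FGF7, the keratinocyte growth factor, read 10.06 and 9.74 in C, 8.96 and 9.08 in D2, 9.28 and 9.50 in D6, and 8.73 and 10.0001 in DT6. FGF10 read 7.17 and 7.26 in C, 6.55 and 6.71 in D2, 6.56 and 6.81 in D6, and 6.85 and 7.83 in DT6. In D2 and D6 both genes lay below the C arrays without overlap, whereas DT6 array 2 reached or passed the C range in both. DT6 array 2 was also the only defect array whose mean of 7 adipocyte markers lay above C, at 0.35, against −0.66 on DT6 array 1 and −1.85 to −0.89 on the D2 and D6 arrays. The same held for the mean of 10 endothelium markers, at 0.06, against −0.35 to −0.04 on the other defect arrays. Its osteoclast and macrophage marker means, 1.81 and 1.71, were the highest of all arrays. The part of fat cells, endothelium, osteoclasts and macrophages in the FGF7 and FGF10 values was not tested.

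Neither gene passed in any comparison with all 8 arrays. FGF7 differed by −0.88 ± 0.34 in D2 (adjusted p = 0.15), −0.51 ± 0.34 in D6 and −0.53 ± 0.34 in DT6, and FGF10 by −0.59 ± 0.27 in D2 (adjusted p = 0.236), −0.53 ± 0.27 in D6 and 0.12 ± 0.27 in DT6. The spread of the DT6 pair entered every test. With either DT6 array left out both genes fell in D2 at the same size, FGF7 at an adjusted p of 0.0102 in both cases, and FGF10 at 0.036 with the second DT6 array kept and 0.0371 with the other. A fit of the D2 and C arrays alone also called them, at adjusted p = 0.0102 for FGF7 and 0.0402 for FGF10. Without DT6 array 2, FGF7 fell in DT6 by 1.17 (adjusted p = 0.024) and over the 3 defect groups by 0.85 (adjusted p = 0.00753), and FGF10 fell over the 3 groups by 0.50 (adjusted p = 0.0385). Without DT6 array 1 the FGF7 difference in DT6 was 0.10.

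FGF18, a ligand of chondrocytes and osteoblasts, showed no difference beyond its spread. It read 6.48 and 6.24 in C, 6.41 and 6.59 in D2, 6.45 and 6.26 in D6, and 6.40 and 5.80 in DT6. All 3 defect groups overlapped C, and the lowest value was that of DT6 array 2. Its difference over the 3 groups together was −0.04, with a 95% interval from −0.44 to 0.35.

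**Figure D1:**
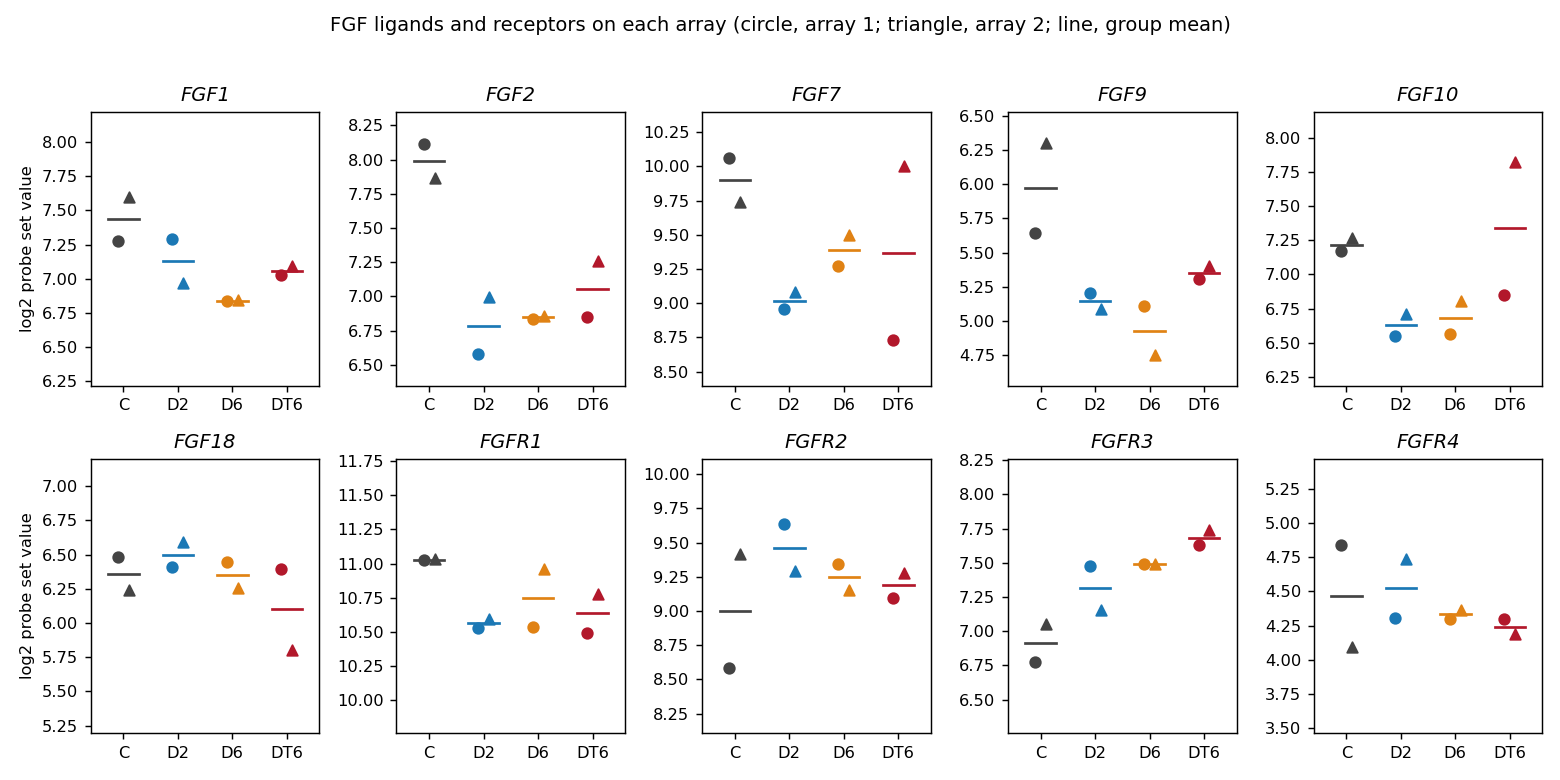
Log2 probe set values of the 10 members by group (x axis), 1 panel per gene, with circles for array 1, triangles for array 2 and lines for group means; every panel spans 2 log2 units around its own centre. FGF2 and FGF9 are above all defect arrays in C, FGFR3 is below them, and the DT6 arrays are far apart for FGF7 and FGF10.

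FGFR3, the receptor that restrains cartilage growth, was the only one of the 10 members to rise in any comparison with all 8 arrays. It read 6.78 and 7.05 in C, 7.47 and 7.15 in D2, 7.49 and 7.49 in D6, and 7.63 and 7.74 in DT6. Every defect array lay above both C arrays, and the group means were in the order C, D2, D6 and DT6. FGFR3 rose in DT6 by 0.77 ± 0.16 (1.70-fold higher, adjusted p = 0.0408) and over the 3 defect groups together by 0.58 ± 0.13 (adjusted p = 0.0294). Its differences of 0.40 ± 0.16 in D2 (adjusted p = 0.167) and 0.58 ± 0.16 in D6 (adjusted p = 0.111) did not pass. Neighbouring defect groups in that order were not told apart, with 0.18 (95% interval −0.18 to 0.54) for D6 against D2 and 0.19 (−0.17 to 0.55) for DT6 against D6.

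The FGFR3 call in DT6 was close to the threshold and ended whichever single array was left out, with differences from 0.63 to 0.91 and adjusted p from 0.0564 without D2 array 2 to 0.215 without C array 1. The call over the 3 groups was lost without C array 1 (0.44, adjusted p = 0.221), C array 2 (0.72, 0.0617), D2 array 1 (0.53, 0.0733), D6 array 1 (0.58, 0.0606) or D6 array 2 (0.58, 0.0557). Airway markers were near C in D6, where FGFR3 stood 0.58 above C, and far above C in D2 and DT6, where FGFR3 stood 0.40 and 0.77 above C. The means of 9 osteoclast and 10 macrophage markers also stood above C on all 6 defect arrays, by 0.41 to 1.81 and 0.77 to 1.71. The part of airway tissue, osteoclasts and macrophages in the FGFR3 values was not tested.

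FGFR1, the main receptor of mesenchymal cells, tended the other way and did not pass. It read 11.02 and 11.03 in C, 10.53 and 10.60 in D2, 10.54 and 10.96 in D6, and 10.49 and 10.78 in DT6. All 6 defect arrays lay below both C arrays, which differed from each other by 0.007, while the D6 pair differed by 0.42. The differences were −0.46 ± 0.18 in D2 (adjusted p = 0.148), −0.28 ± 0.18 in D6 and −0.39 ± 0.18 in DT6 (adjusted p = 0.295), and −0.38 ± 0.14 over the 3 groups (adjusted p = 0.145).

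FGFR2, which osteoblasts and epithelium express in different splice forms, was spread widest within C. It read 8.58 and 9.42 in C, 9.63 and 9.29 in D2, 9.34 and 9.15 in D6, and 9.10 and 9.28 in DT6. C array 1 was the lowest of the 8 and C array 2 the second highest, so each defect group overlapped C. The difference over the 3 groups was 0.30, with a 95% interval from −0.17 to 0.76, and it was −0.12 without C array 1. The arrays rich in oral epithelium markers, D2 array 2 and D6 array 1, read 9.29 and 9.34, and their replicates read 9.63 and 9.15. The part of oral epithelium in the FGFR2 values was not tested. A single probe set does not separate the splice forms.

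FGFR4, the receptor of liver and muscle progenitors, read lowest of its own 8 values at 4.09 on C array 2 and highest at 4.84 on C array 1, so that C spanned all defect arrays. Its defect values lay between 4.19 and 4.74. No value exceeded 6.31, the highest array median, so FGFR4 read low. The FGFR4 difference over the 3 groups was −0.10, with a 95% interval from −0.58 to 0.38.

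Counted over the members, 1 of 10 passed in D2 against C, FGF2, where 8.4% of all genes passed. In D6 against C 1 of 10 passed, again FGF2, against 1.76% of all genes, and in DT6 against C 2 of 10, FGF2 and FGFR3, against 3.04%. For the 3 defect groups together 3 of 10 passed, FGF2, FGF9 and FGFR3, against 8.38%. These 4 comparisons share the C arrays. The median of the 6 ligands was −0.71 in D2, −0.56 in D6, −0.46 in DT6 and −0.54 over the 3 groups, beside medians of all genes of −0.01, 0.01, −0.01 and 0.00. The median of the 4 receptors was 0.23, 0.06, −0.02 and 0.10. Of the 10 members, 6 had groups that did not overlap in D2 against C, where 56.3% of all genes did so, 7 in D6 (48.6%), 5 in DT6 (41.6%) and 4 over the 3 groups (23.3%).

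The comparisons among defect groups set 6 against 2 weeks and tooth movement against none, and none of the members passed in either. Airway marker means stood 3.58 to 4.36 above C on the D2 and DT6 arrays, against −0.31 and 0.48 on those of D6. Of 12 airway markers 10 fell in D6 against D2 and 9 rose in DT6 against D6. Airway tissue therefore cannot be told apart from time in the first comparison or from tooth movement in the second. In D6 against D2 0 of 10 passed in limma, against 1.68% of all genes, and 0 had an unadjusted p under 0.05, against 7.88%. The differences ran from −0.29 ± 0.17 for FGF1 to 0.37 ± 0.34 for FGF7. In DT6 against D6 0 of 10 passed in limma, against 1.52% of all genes, and 1 had an unadjusted p under 0.05, against 6.52%. That member was FGF10, at 0.65 ± 0.27 (adjusted p = 0.703), with a 95% interval from 0.03 to 1.27. Both DT6 arrays lay above both D6 arrays, the nearer of them by 0.04. Without DT6 array 1 the FGF10 difference was 1.14 and passed (adjusted p = 0.0202), and without DT6 array 2 it was 0.16.

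For the other members the 95% interval of DT6 against D6 gives the sizes of difference within reach of these arrays. FGF9 differed by 0.42 (−0.11 to 0.96) with both DT6 arrays higher, FGF2 by 0.21 (−0.23 to 0.65), FGF1 by 0.22 (−0.16 to 0.59), FGF18 by −0.25 (−0.74 to 0.23) and FGF7 by −0.02 (−0.79 to 0.75). The receptors FGFR1, FGFR2 and FGFR4 differed by −0.11 (−0.51 to 0.29), −0.06 (−0.63 to 0.51) and −0.09 (−0.68 to 0.50). DT6 against D2, a comparison added to order the groups, also gave 0 of 10, and 0 of all genes (0%). There 2 of the 10 had an unadjusted p under 0.05 in limma, against 6.22% of all genes. They were FGF10 at 0.71 (0.09 to 1.33, adjusted p = 0.738) and FGFR3 at 0.37 (0.008 to 0.73, adjusted p = 0.792).

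**Figure D2:**
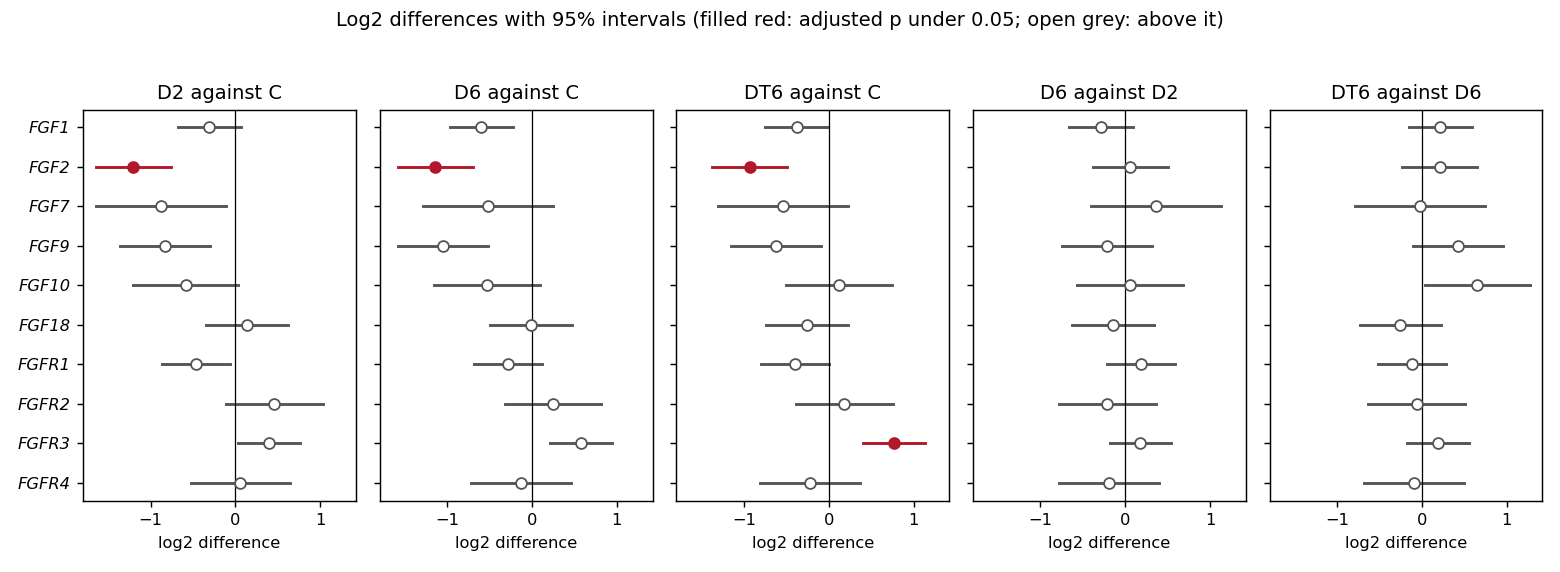
Log2 differences (x axis) of the 10 members (y axis) in 5 comparisons, with 95% intervals from limma; filled red points passed at an adjusted p under 0.05. FGF2 is filled in the 3 comparisons with C and FGFR3 in DT6 against C, and nothing is filled in the comparisons among defect groups.

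The rest of the FGF family, 16 genes that include homologues which stay inside the cell, gave no call. Only FGF3, FGF4, FGF17 and FGF23 read above 6.31, the highest array median, on any array, so most of the list read low. None of the 16 passed in limma in any of the 6 comparisons. Those at an unadjusted p under 0.05 were 0 in D2 against C (23.8% of all genes), 3 in D6 (16.4%) and 4 in DT6 (17.6%). Their median over the 3 defect groups was −0.21. The largest difference was that of FGF23, the phosphate-regulating hormone of osteocytes, at −1.03 ± 0.38 (adjusted p = 0.137). The part of osteocytes in the FGF23 values was not tested. FGF23 read 6.69 and 5.05 in C and between 4.42 and 5.31 on the defect arrays, so 1 C array stood alone above the rest. Without C array 2 it fell by 1.75 in D2 (adjusted p = 0.0416) and the difference over the 3 groups was −1.85 (adjusted p = 0.0319). FGF3, an early developmental ligand, differed by −0.71 ± 0.24 (adjusted p = 0.109) and without DT6 array 1 fell by 0.87 (adjusted p = 0.0204), and by 1.21 in DT6 alone (adjusted p = 0.04). Between defect groups the widest differences were those of FGF13, one of the FGF homologues that stay inside the cell, at −0.32 ± 0.18 in D6 against D2 and 0.41 ± 0.18 in DT6 against D6. FGF14, of the same group, stood at −0.39 ± 0.18 in the latter and FGF4 at 0.25 ± 0.19 in the former.

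Among the 11 measured co-receptors and partners 0 passed in D6 (1.76% of all genes) and DT6 (3.04%). There 2 and 3 had an unadjusted p under 0.05, against 16.4% and 17.6% of all genes. In D2 and over the 3 groups 1 of 11 passed, where 8.4% and 8.38% of all genes passed. The gene was LRIG3, a leucine-rich membrane protein reported to bind FGF receptors in frog embryos. LRIG3 read 8.12 and 8.68 in C, 9.54 and 9.66 in D2, 9.38 and 8.98 in D6, and 8.87 and 9.44 in DT6. All defect arrays were higher than both C arrays. LRIG3 rose in D2 by 1.20 ± 0.24 (adjusted p = 0.0203) and over the 3 groups by 0.92 ± 0.20 (adjusted p = 0.0263). Without C array 1 the values were 0.92 (adjusted p = 0.131) and 0.64 (adjusted p = 0.235), and the calls also ended without D2 array 1 (adjusted p = 0.105 and 0.0565) or D2 array 2 (0.117 and 0.0594). ANOS1, the secreted protein anosmin that binds FGFR1, differed by 1.17 ± 0.35 in D2 (adjusted p = 0.0779), 0.97 ± 0.35 in D6 and −1.03 ± 0.35 in DT6 against D6 (adjusted p = 0.463) without passing. CDH2, N-cadherin, differed by 1.66 ± 0.59 in D2 (adjusted p = 0.126), 1.11 ± 0.59 in D6 and 0.85 ± 0.59 in DT6, and its C arrays read 7.18 and 9.23. FGFBP1, which carries FGFs out of the matrix and is made by squamous epithelium, read 6.49 on D6 array 1, the array richest in oral epithelium markers, and 4.75 to 5.32 elsewhere. In D6 against D2 it differed by 0.53 ± 0.46, and without D6 array 2 rose by 1.40 (adjusted p = 0.0466). KLB, the co-receptor of endocrine FGFs, differed by 0.53 ± 0.32 in DT6 against D6 and read highest on DT6 array 2, at 5.59.

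Of 13 heparan sulfate proteoglycans 0 passed in DT6 (3.04% of all genes), where 2 had an unadjusted p under 0.05 (17.6%). In D2 (8.4%), in D6 (1.76%) and over the 3 groups (8.38%) 1 of the 13 passed. It was SDC1, or syndecan 1, a membrane proteoglycan of epithelium and plasma cells that binds FGFs. SDC1 read 6.99 and 6.84 in C, 7.77 and 8.04 in D2, 8.03 and 7.79 in D6, and 7.30 and 7.47 in DT6. No defect array reached down to C, and the DT6 arrays lay between C and the other defect groups. It rose in D2 by 0.99 ± 0.16 (adjusted p = 0.00758), in D6 by 1.00 ± 0.16 (adjusted p = 0.0212) and over the 3 groups by 0.82 ± 0.13 (adjusted p = 0.00811). The difference of DT6 against D6 was −0.53 ± 0.16 (adjusted p = 0.288). The arrays with oral epithelium markers read highest. Without both of them SDC1 stood 0.85 above C in D2 and 0.88 in D6, where the calls were lost, and the call over the 3 groups was kept. The part of oral epithelium in the SDC1 values was not tested. The D2 call ended without D2 array 2 (0.85, adjusted p = 0.07), the D6 call without C array 1 (adjusted p = 0.14), C array 2 (0.0882) or D6 array 1 (0.153), and that over the 3 groups without C array 1 (0.0716) or C array 2 (0.0649).

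GPC3 and GPC5, glypicans held to the membrane by a lipid anchor, had lower group means than C in all 3 defect groups without passing. GPC3 differed by −1.41 ± 0.42 in D2 (adjusted p = 0.0751), with both D2 arrays below both C arrays, by −0.79 ± 0.42 in D6, where the arrays overlapped those of C, and by −1.07 ± 0.42 in DT6. GPC5 differed by −1.06 ± 0.50 in D2, −0.37 ± 0.50 in D6 and −1.08 ± 0.50 in DT6, and its D6 and DT6 arrays overlapped those of C. In DT6 against C GPC3 fell by the same amount without D6 array 1 (adjusted p 0.0366) or its replicate (0.038), which were themselves unequal at 6.82 and 8.36. Without DT6 array 1, GPC5 fell by 1.94 in DT6 (adjusted p = 0.0328). In D6 against D2 GPC5 and GPC3 differed by 0.69 ± 0.50 and 0.62 ± 0.42, and GPC3 rose by 1.39 without D6 array 1 (adjusted p = 0.0456) but stood at −0.15 without D6 array 2.

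Of the 13 measured enzymes that build or trim heparan sulfate, 1 passed in D2, where 8.4% of all genes passed. In D6, DT6 and over the 3 groups 0 passed in limma, against 1.76%, 3.04% and 8.38% of all genes. There 5, 2 and 4 of the 13 had an unadjusted p under 0.05. Over all genes this held for 16.4% in D6, 17.6% in DT6 and 3936 of 15947 genes over the 3 groups. SULF1, an extracellular sulfatase that removes the sulfates FGFs bind to, fell in D2 by 0.73 ± 0.18 (adjusted p = 0.041), from 10.34 and 9.96 in C to 9.26 and 9.59. The D6 values were 9.62 and 9.60 and the DT6 values 9.67 and 9.88, all below C. The call in D2 was lost without C array 1 (−0.53, adjusted p = 0.199), D2 array 1 (−0.56, 0.283), D2 array 2 (−0.89, 0.0836), D6 array 1 (0.0601) or D6 array 2 (0.061). EXT1, which elongates the chains, differed by 0.71 ± 0.20 in D6 and 0.64 ± 0.20 in DT6, and heparanase, HPSE, which cleaves them, by 0.75 ± 0.23 and 0.63 ± 0.23. EXT1 rose in D6 without DT6 array 1 (adjusted p 0.0408) or its replicate (0.0406). Without DT6 array 1, EXT1 rose in DT6 by 0.94 (adjusted p = 0.0307) and HPSE by 0.95 (adjusted p = 0.0462), and HPSE rose over the 3 groups by 0.75 (adjusted p = 0.0179). The sulfatase SULF2 differed by −0.74 ± 0.27 in DT6 against D6 (adjusted p = 0.551) and the sulfotransferase HS6ST1 by −0.24 ± 0.19 in D6 against D2.

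The intracellular relay was described by 20 measured adaptors and effectors, of which 0 rose. Those that fell were 2 in D2 (8.4% of all genes passed there in either direction), 0 in D6 (1.76%), 1 in DT6 (3.04%) and 2 over the 3 groups (8.38%). At an unadjusted p under 0.05 in D6 were 4 of the 20, against 16.4% of all genes. GAB1, a docking protein that brings phosphatidylinositol 3-kinase to the receptor complex, read 9.65 and 9.58 in C and between 8.87 and 9.11 on all defect arrays. No defect array came near C, and the D2 arrays were the lowest of the 8. GAB1 fell in D2 by 0.72 ± 0.12 (adjusted p = 0.0101), in DT6 by 0.64 ± 0.12 (adjusted p = 0.0303) and over the 3 groups by 0.65 ± 0.10 (adjusted p = 0.00794), with −0.58 ± 0.12 in D6 (adjusted p = 0.0577), where it fell by the same amount without DT6 array 1 (adjusted p 0.0349) or its replicate (0.035). PIK3R1, the regulatory subunit of that kinase, fell in D2 by 0.74 ± 0.18 (adjusted p = 0.0432), and the RAS activator SOS2 fell over the 3 groups by 0.50 ± 0.13 (adjusted p = 0.0494). Leaving out 1 array at a time gave GAB1 differences from −0.76 to −0.61 in the 3 comparisons where it passed and from −0.65 to −0.50 in D6. Its call over the 3 groups ended without C array 1 (adjusted p = 0.0845), its D2 call without C array 1 (0.0651), D2 array 1 (0.0897) or D2 array 2 (0.0922), and its DT6 call under 5 of the 8 omissions. Those of PIK3R1 and SOS2 each ended under 6 of the 8, with adjusted p up to 0.268 and 0.253.

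Transcripts that FGF signalling is known to induce showed no common direction. Of 20 measured target and feedback genes 2 fell in D2 (8.4% of all genes passed in either direction), 0 in D6 (1.76%), 1 in DT6 (3.04%) and 1 over the 3 groups (8.38%), and 0 rose. In D6 3 of the 20 had an unadjusted p under 0.05, against 16.4% of all genes. The list had a median of 0.04 over the 3 groups. ETV5, an ETS factor induced by FGF signalling, read 7.17 and 7.30 in C, 6.33 and 6.53 in D2, 6.39 and 6.82 in D6, and 6.34 and 6.51 in DT6. Every defect array was lower than both C arrays. ETV5 fell in D2 by 0.80 ± 0.18 (adjusted p = 0.029), in DT6 by 0.81 ± 0.18 (adjusted p = 0.049) and over the 3 groups by 0.75 ± 0.15 (adjusted p = 0.0186), with −0.63 ± 0.18 in D6 (adjusted p = 0.122). Leaving out 1 array at a time gave differences from −0.90 to −0.68 in the 3 comparisons where it passed and from −0.84 to −0.41 in D6. The D2 call ended under 4 of the 8 omissions, with adjusted p up to 0.204, the DT6 call under 6, up to 0.184, and that over the 3 groups under 3, C array 1 (0.116), C array 2 (0.111) and D2 array 1 (0.0503).

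EGR1, an immediate early factor, fell in D2 by 0.97 ± 0.20 (adjusted p = 0.0224), with 9.53 and 9.62 in D2 and 10.22 to 10.88 on all other arrays. Without C array 2 it was −0.65 (adjusted p = 0.0636), and the call also ended without D2 array 1 (adjusted p = 0.152) or D2 array 2 (adjusted p = 0.106). In D6 against D2 EGR1 differed by 0.80 ± 0.20 (adjusted p = 0.146) and rose by that amount in a fit without C array 1 (0.0313), without C array 2 (0.0305) or with only D2 and D6 (0.0232). FOS, another immediate early factor, differed by 0.69 ± 0.19 in DT6 against D6 (adjusted p = 0.231), with 9.37 and 10.01 in DT6 and 8.92 to 9.01 on all other arrays, and rose by 1.01 without DT6 array 1 (adjusted p = 0.00912). The phosphatase DUSP5 differed by 0.68 ± 0.25 in D6 against C, IL17RD, a membrane inhibitor of FGF signalling, by −0.31 ± 0.22 in D6 against D2, and the Sprouty-related SPRED3 by −0.57 ± 0.17 in DT6 against D6.

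The feedback and target genes below, picked here after their values were seen, did not pass over the 3 defect groups, whereas ETV5 above did. SPRY2, a Sprouty inhibitor, differed by −0.50 ± 0.15 (adjusted p = 0.0711), SPRY1 by −0.18 ± 0.22, SPRY4 by −0.03 ± 0.16, the ERK phosphatase DUSP6 by 0.11 ± 0.28 and ETV4 by 0.11 ± 0.18. The C arrays read 9.34 and 8.10 for DUSP6 and 8.79 and 7.86 for SPRY1, and 6.15 and 6.11 for ETV4. SPRY2 read 7.36 and 7.05 in C and 6.34 to 7.02 on the defect arrays, all below both C arrays. Of the 20 target and feedback genes 3 lay wholly below C over the 3 groups and 0 above, where 23.3% of all genes did not overlap.

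**Figure D3:**
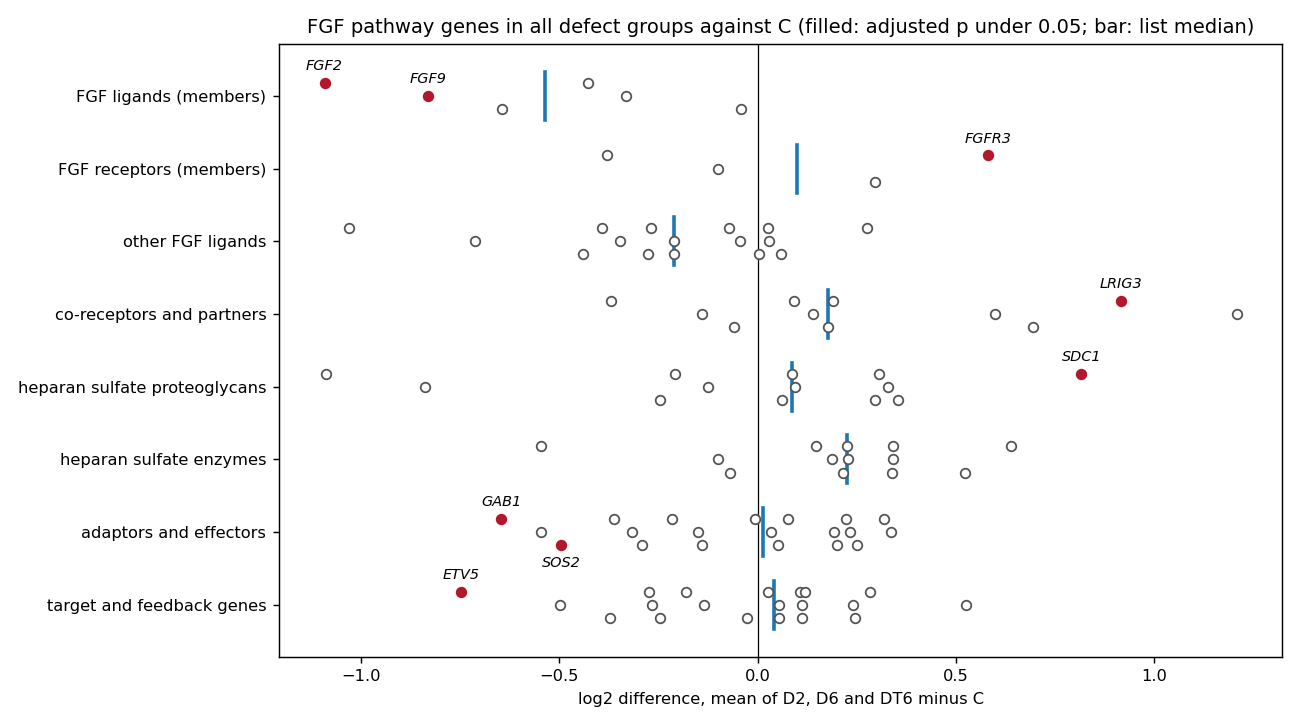
Log2 differences of the mean of D2, D6 and DT6 minus C (x axis) for the 10 members and 6 lists of FGF pathway genes (y axis), 1 point per gene, with bars at the list medians; filled, named points passed at an adjusted p under 0.05. FGF2, FGF9, GAB1, SOS2 and ETV5 lie to the left of 0 and FGFR3, LRIG3 and SDC1 to the right, among many open points near 0.

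The genes whose values ran most like each called member over the 8 arrays were taken from those whose group means spanned at least 1 log2 unit. Arrays of a group share its treatment, so each r also takes in the step between C and the defect groups. FGF2 ran with RARB, a retinoic acid receptor (r = 0.988), with ZFPM2, a zinc finger cofactor of GATA factors (r = 0.9699), and with BMP3, a bone morphogenetic protein that opposes osteogenic members of its family (r = 0.964), among 1099 candidates with a median r of −0.46. RARB read 8.98 and 8.80 in C and 7.76 to 8.30 on the defect arrays. FGF9 ran with GFRA1, a co-receptor of the glial cell line-derived factor (r = 0.959), SMOC1, a calcium-binding matrix protein (r = 0.924), and SCN4B, a sodium channel subunit (r = 0.915). FGFR3 ran with ARSB, a lysosomal sulfatase of dermatan sulfate (r = 0.902), PXDNL, a peroxidasin relative (r = 0.899), and CNR1, a cannabinoid receptor (r = 0.888), among 1100 candidates with a median r of 0.37.

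**Figure D4:**
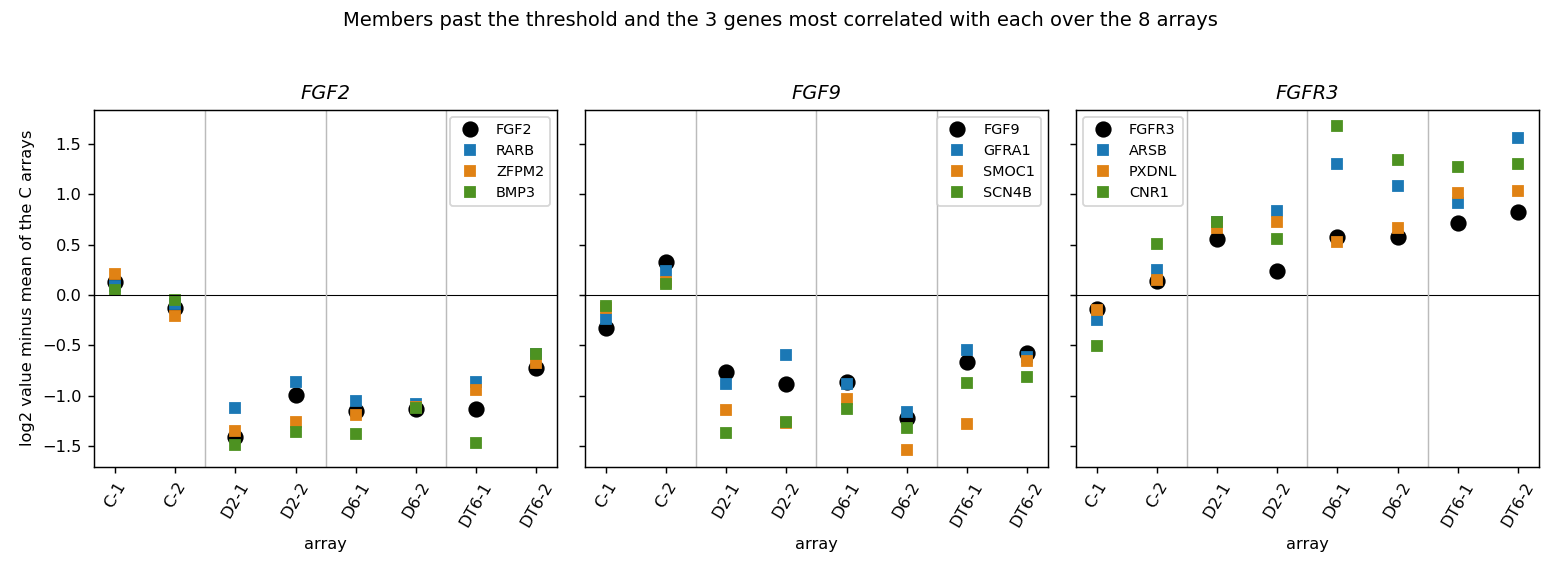
Log2 values minus the mean of the C arrays (y axis) on each array (x axis) for FGF2, FGF9 and FGFR3 (black circles) and the 3 genes most correlated with each (coloured squares); vertical lines part the groups. The FGF2 and FGF9 sets sit below 0 on every defect array and the FGFR3 set above 0.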

How the data were processed

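The authors deposited 1 table of 22708 probe sets on 8 arrays, treated here as log2 values: they run from 0.914 to 14.5, with array medians of 6.25 to 6.31. Per the labels' protocols the RNA was amplified and labelled with the Affymetrix whole-transcript sense protocol. How they were summarised and normalized, and in which log base, is not given in the sources used here. Folds rest on base 2. GEO's platform annotation gave a single symbol to 16545 probe sets, more than 1 symbol to 370 and no entry to 5793. The highest mean was kept for the 516 genes with more than 1, leaving 15947. All 10 members had 1 probe set, and their gene identifiers gave the same symbols in the RefSeq table of UU_Cfam_GSD_1.0. Groups and replicate numbers came from the sample titles.

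limma 3.58.1 (R 4.3.3) was fitted on the 4 group means of all 8 arrays with 4 residual degrees of freedom, eBayes with a variance trend, two-sided tests and Benjamini-Hochberg adjustment over all genes in each of 6 comparisons, at a threshold of 0.05. "Rose" and "fell" mean past it. DT6 against D2 was added later. The code was tested on simulated data. The members, the 6 pathway lists and the 14 marker lists were chosen with earlier results of these data known. Named were all members, up to 4 called genes per list and comparison or else the 2 largest differences, and the 3 genes most correlated with each called member. The alternatives were no variance trend, mean over probe sets, a filter on dim genes, quantile normalization, fits of the compared groups alone, a replicate block, omission of both arrays rich in oral epithelium markers, and omission of each array.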

Additional observations from a re-analysis of the deposited data

How the results depend on the processing

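The 60 member differences were recomputed under up to 15 alternatives, giving 872 values, of which 791 kept both direction and side of the threshold, 39 lost a call, 12 gained one and 30 changed sign, the last all in differences that had not passed. For the pathway genes the same counts were 799, 79, 27 and 8 of 913. The number of members past the threshold in DT6 against C went from 2 to 0 without the variance trend, 0 with the replicate block, 1 with only the groups compared and 1 without D2 array 2 and D6 array 1. That omission also took D6 against C from 1 to 0 and the 3 groups together from 3 to 1, and the fit of the compared groups raised D2 against C from 1 to 3. Leaving out single arrays gave 0 to 3 members in D2, 0 to 1 in D6, 0 to 2 in DT6, 0 to 5 over the 3 groups, 0 to 0 in D6 against D2 and 0 to 1 in DT6 against D6. Over all genes the counts without 1 array were 310 to 1940 in D2, 0 to 683 in D6 (0 in limma without C array 1, where 1986 had an unadjusted p under 0.05), 127 to 719 in DT6, 145 to 315 in D6 against D2, 154 to 318 in DT6 against D6 and 90 to 1863 over the 3 groups. The other alternatives gave 534 to 1801, 49 to 354, 262 to 502, 121 to 293, 105 to 243 and 720 to 1604. The replicate numbers are taken only as names, since deviations of same-numbered arrays correlated between −0.258 and 0.195. With the replicate block FGF2 and FGFR3 in DT6 reached adjusted p = 0.055 and 0.0691, and without the variance trend 0.0521 and 0.053. FGFR3 in DT6 reached 0.0774 with only the groups compared and 0.0771 without D2 array 2 and D6 array 1, where FGF2 in D6 reached 0.129, and FGF9 and FGFR3 over the 3 groups 0.055 and 0.0741. Of the pathway calls the block ended those of SULF1 (0.0653) and PIK3R1 (0.062) in D2, GAB1 in DT6 (0.0543) and SOS2 (0.0752). Without the variance trend those of SULF1 (0.0529) and PIK3R1 (0.052) in D2, ETV5 in DT6 (0.0573) and SOS2 (0.0668) ended. With only the groups compared ETV5 and GAB1 in DT6 reached 0.0616 and 0.134. The filter on dim genes took ETV5 in DT6 to 0.0571. Without D2 array 2 and D6 array 1 all D2 calls of these lists ended. So did those of GAB1 and ETV5 in DT6, and of GAB1, ETV5, LRIG3 and SOS2 over the 3 groups. The filter on dim genes dropped the members FGF9, FGF18 and FGFR4. Among the named pathway genes it dropped FGF3, FGF4, FGF13, FGF14, FGF23, FGFBP1, KLB, GPC5, HPSE, DUSP5, IL17RD and SPRED3, which thus read low. Without D2 array 2 and D6 array 1 the sign turned for FGFR4 in D2 (−0.16), for FGFR4 (0.058), FGFBP1 (−0.15), HS6ST1 (0.0026) and IL17RD (0.18) in D6 against D2, and for FGFR2 in DT6 against D6 (0.033). Leaving out single arrays turned the sign of further differences that had not passed, which then ranged as follows. In D6 the difference ran for FGF18 from −0.13 to 0.11, FGFR2 from −0.17 to 0.66 and FGFR4 from −0.51 to 0.24. In DT6 the difference ran for FGFR2 from −0.23 to 0.60, FGFR4 from −0.60 to 0.15, CDH2 from −0.18 to 1.87, FGF7 from −1.17 to 0.10, FGF10 from −0.37 to 0.61 and FGF18 from −0.56 to 0.037. Over the 3 groups the difference ran for FGF18 from −0.16 to 0.079, FGFR2 from −0.12 to 0.71 and FGFR4 from −0.47 to 0.27. In D2 the difference ran for FGFR4 from −0.31 to 0.43. In D6 against D2 the difference ran for FGF2 from −0.15 to 0.27, FGF10 from −0.066 to 0.18, FGFR4 from −0.41 to 0.024, FGFBP1 from −0.34 to 1.40, HS6ST1 from −0.50 to 0.013, FGFR1 from −0.025 to 0.40 and GPC3 from −0.15 to 1.39. In DT6 against D6 the difference ran for FGFR2 from −0.16 to 0.033, FGF7 from −0.65 to 0.61, FGFR1 from −0.32 to 0.10, FGF18 from −0.55 to 0.044 and GPC5 from −1.57 to 0.15. The cause of these changes was not tested. With 2 arrays a group, a fit that leaves out an array assumes that the lone array varies like the others.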
